A study of Mus musculus with 12 samples.

Results

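The NK cell chemokine genes Ccl3, Ccl4, Ccl5, Xcl1 and Cxcl10 were followed over 12 expression arrays of mouse NK cells with and without miR-142. They were chosen by name, with earlier results of these data known, and they make 5 of the 19938 gene symbols that the arrays measured with a probe set assigned to 1 gene only. Each of the 5 had 1 such probe set, so none had to be averaged or chosen among several. The cells came from C57BL6 mice aged 7 to 10 weeks, wild type or knockout (KO) for the microRNA gene Mir142 and matched for age and sex. NK cells were sorted as CD3- NK1.1+ cells from the spleen or from the bone marrow, which gave 4 groups: wild type spleen, KO spleen, wild type bone marrow and KO bone marrow, with 3 arrays in each. The labels describe no stimulation of the cells and name no Cre or promoter that would restrict the deletion to NK cells. Each array is titled a biological replicate, but whether it held 1 mouse or several is not stated, so p-values measure the spread between these samples.

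Chemokines are small secreted proteins that draw leukocytes along a gradient by binding receptors coupled to G proteins. Ccl3, Ccl4 and Ccl5 are also known as MIP-1 alpha, MIP-1 beta and RANTES, and activated NK cells release them together with interferon gamma. Xcl1, or lymphotactin, binds Xcr1 on cross-presenting dendritic cells. Cxcl10, or IP-10, is induced by interferons and binds Cxcr3, a receptor that NK cells and activated T cells carry.

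The KO removes the microRNA whose mature strands are shown first. Their capitals mark the seed, bases 2 to 8, which pairs with target mRNAs. Both lie on the plus strand of chromosome 11 (RefSeq, GRCm38.p6), the 5p strand at chr11:87756867-87756887 and the 3p strand at chr11:87756903-87756925. Below them stand the 250 bases before the transcription start of Ccl3, Xcl1 and Cxcl10, the 3 of the 5 genes matched by symbol in RefSeq's promoter table. They are shown because their capitals, which mark matches to 4 searched motifs, set Cxcl10 apart by its letters.
mmu-miR-142a-5p: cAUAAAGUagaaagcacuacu
mmu-miR-142a-3p: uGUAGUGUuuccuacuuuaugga
Ccl3 (chr11:83649379-83649628, minus strand): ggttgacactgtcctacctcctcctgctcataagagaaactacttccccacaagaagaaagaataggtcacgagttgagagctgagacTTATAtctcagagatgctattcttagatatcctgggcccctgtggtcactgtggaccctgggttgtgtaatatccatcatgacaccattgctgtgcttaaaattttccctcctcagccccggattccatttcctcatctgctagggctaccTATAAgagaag
Xcl1 (chr1:164935523-164935772, minus strand): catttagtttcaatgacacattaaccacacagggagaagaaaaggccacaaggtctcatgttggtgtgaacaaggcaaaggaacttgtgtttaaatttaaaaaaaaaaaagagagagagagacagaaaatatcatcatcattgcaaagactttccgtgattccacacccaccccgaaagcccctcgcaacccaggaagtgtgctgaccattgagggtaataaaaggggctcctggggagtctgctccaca
Cxcl10 (chr5:92348890-92349139, minus strand): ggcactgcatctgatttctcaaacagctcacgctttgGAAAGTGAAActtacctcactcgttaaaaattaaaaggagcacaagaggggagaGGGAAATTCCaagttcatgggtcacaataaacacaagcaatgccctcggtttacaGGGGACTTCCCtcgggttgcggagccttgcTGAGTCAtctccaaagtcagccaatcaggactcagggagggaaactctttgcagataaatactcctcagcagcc
The motifs, searched on both strands, were the NF-kappa-B site, the interferon-stimulated response element written GAAANNGAAA, the AP-1 site written TGANTCA and the TATA core written TATAA. The Cxcl10 window held 3 matches to the NF-kappa-B site, of which those at positions -104 and -103 from the start overlap and form 1 stretch. It also held 1 interferon-stimulated response element, starting at position -213, and 1 AP-1 site, starting at position -74. Among 32841 promoter windows of the same table and length, 7.25% held the NF-kappa-B site, 2.98% the response element, 6.75% the AP-1 site and 22.8% the TATA core. The Ccl3 window held 2 TATA cores, one on the opposite strand, and the Xcl1 window held none of the 4 motifs. A match is a string of letters, not a site shown to be bound, and a window without one says nothing about the factor.

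The values are log2 signals, so a difference of 1 is a doubling of the signal. Array medians over all probe sets lay between 5.75 and 5.87. The Mir142 probe set read 6.77 to 8.25 on the wild type arrays and 4.05 to 4.70 on the KO arrays, so the labels matched the targeted gene in all 12. NK markers were high throughout, with the activating receptor gene Ncr1 at 11.53 to 12.11 and Klrb1c, which encodes NK1.1, at 10.65 to 11.42. Array numbers in the labels form 2 runs of consecutive numbers, with 7 and 5 arrays. All KO bone marrow arrays are in the first run, and the limma fit behind the differences given here carried the run as a term, except where its omission is named. What the numbers stand for is not given in the sources used here. In sorted bulk cells, fewer cells of a type and less RNA per cell cannot be told apart.

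The 4 chemokines Ccl3, Ccl4, Ccl5 and Xcl1 were among the brightest genes of every array in both genotypes, and Cxcl10 was not. Ranked by signal within an array, Ccl5 stood between places 1 and 6 of 19938, Ccl3 between 14 and 87, Xcl1 between 39 and 99 and Ccl4 between 74 and 242. Cxcl10 stood between places 1959 and 10231. Brightness also depends on each probe set's own binding, so these places describe the arrays and do not order the genes by mRNA. All 5 passed the filter on dim genes, a mean above the 40th percentile (5.49). Of 31 other chemokine genes measured, 13 passed and 18 did not, and the brightest of the 31 had a mean of 6.39, under the 6.73 of Cxcl10.

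Ccl3, a ligand of Ccr1, was measured in wild type spleen at 12.63, 12.62 and 12.48. In KO spleen it read 12.73, 12.56 and 12.82. In bone marrow it read 12.42, 12.19 and 12.17 in wild type and 12.65, 12.26 and 11.99 in KO. Wild type and KO arrays overlapped in both tissues, and the KO bone marrow arrays were the most spread out, covering both the top and the bottom of the bone marrow values. The group means ± SD (n = 3) fell in the order KO spleen 12.70 ± 0.13, wild type spleen 12.58 ± 0.08, KO bone marrow 12.30 ± 0.33 and wild type bone marrow 12.26 ± 0.14. Neighbours in that order overlapped in their arrays.

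Ccl4, the close relative of Ccl3, read 11.35, 11.51 and 11.48 in wild type spleen. KO spleen gave 11.92, 11.74 and 12.07. Every KO spleen array was above every wild type spleen array. In wild type bone marrow it read 11.20, 11.005 and 10.86, and in KO bone marrow 11.59, 11.41 and 10.89. Here 2 KO arrays lay above all wild type arrays and the third lay among them. The group means were 11.91 ± 0.17 in KO spleen, 11.45 ± 0.09 in wild type spleen, 11.30 ± 0.36 in KO bone marrow and 11.02 ± 0.17 in wild type bone marrow (SD, n = 3), and only the first 2 of these neighbours had separate arrays.

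Ccl5, which signals through Ccr1 and Ccr3 and which resting NK cells already hold as mRNA, hardly varied. Wild type spleen gave 13.32, 13.40 and 13.30, and KO spleen 13.44, 13.36 and 13.35. Wild type bone marrow gave 13.15, 13.20 and 13.30, and KO bone marrow 13.16, 13.17 and 13.19. The genotypes overlapped in both tissues, and all 12 arrays lay within 0.28 of each other. The group means ± SD (n = 3) were 13.38 ± 0.05 in KO spleen, 13.34 ± 0.05 in wild type spleen, 13.22 ± 0.07 in wild type bone marrow and 13.17 ± 0.02 in KO bone marrow, and neighbours overlapped. Its pooled within-group SD was 0.05, against a median of 0.16 over all genes tested, and 0.794% of those genes had a smaller SD. The brightest probe sets of an array have little room above them, and whether that compressed Ccl5 was not tested.

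Xcl1, the lymphotactin gene, was the 1 of the 5 whose genotypes did not overlap in either tissue, which held, with the same sign in both tissues, for 13.5% of all genes tested. Wild type spleen read 11.87, 11.97 and 11.88, and KO spleen 12.11, 12.10 and 12.01. Wild type bone marrow read 12.18, 12.27 and 12.23, and KO bone marrow 12.29, 12.45 and 12.33. Every KO array lay above every wild type array of its tissue, and every bone marrow array above every spleen array, so the 4 groups formed 4 steps without overlap. The steps were small: group means ± SD (n = 3) were 11.91 ± 0.05 in wild type spleen, 12.07 ± 0.06 in KO spleen, 12.23 ± 0.04 in wild type bone marrow and 12.36 ± 0.09 in KO bone marrow. The pooled SD was 0.06, smaller than in all but 1.70% of the genes tested.

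Cxcl10, the interferon-inducible member, varied most. It read 6.22, 6.31 and 6.55 in wild type spleen and 6.11, 5.85 and 7.10 in KO spleen. It read 6.44, 7.27 and 6.47 in wild type bone marrow and 6.56, 8.66 and 7.25 in KO bone marrow. The second KO bone marrow array was the highest of the 12. Genotypes overlapped in both tissues. The pooled SD was 0.68, larger than in 99.6% of the genes tested, and the group means were 6.35 ± 0.66 in KO spleen, 6.36 ± 0.17 in wild type spleen, 6.73 ± 0.47 in wild type bone marrow and 7.49 ± 1.07 in KO bone marrow (SD, n = 3), neighbours again overlapping.

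**Figure D1:**
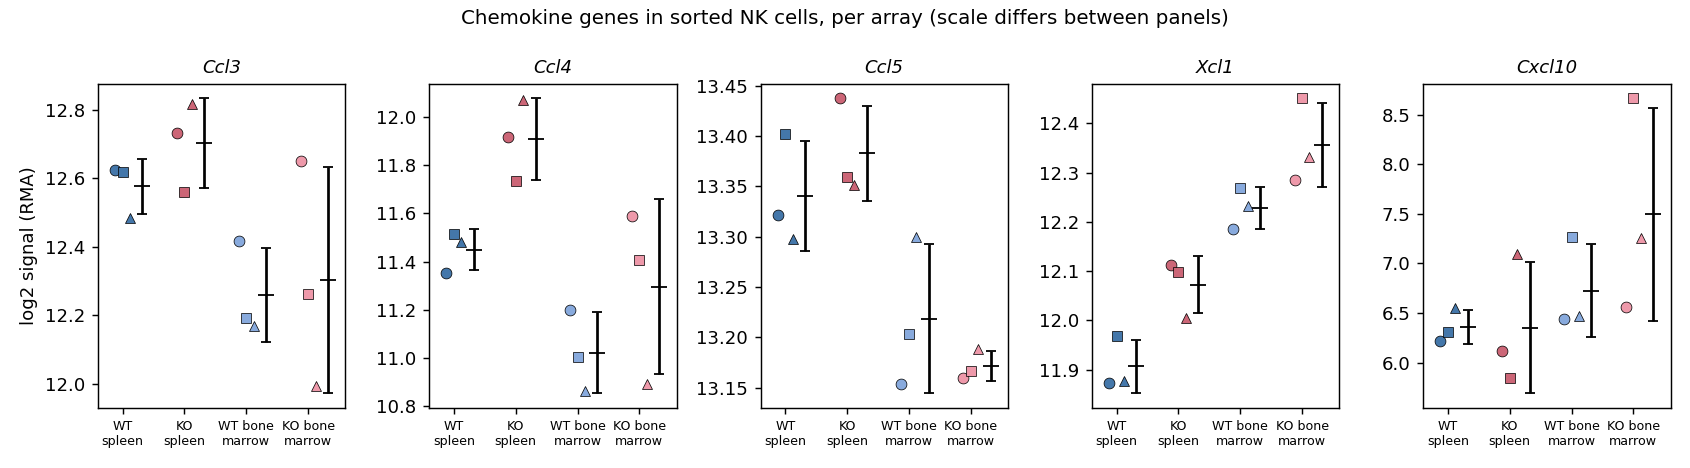
Log2 signal of the 5 chemokine genes on each of the 12 arrays, by genotype and tissue, each gene on its own vertical scale. Points are arrays (circle, square and triangle for replicates 1, 2 and 3), and bars are the mean and 1 SD over 3 arrays. Xcl1 forms 4 groups without overlap, while Cxcl10 reaches 8.66 on 1 KO bone marrow array.

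None of the 5 chemokine genes passed the test for a difference between KO and wild type, in either tissue or over both. Differences are from limma, which fits all genes together, with p-values adjusted by Benjamini-Hochberg over the 11963 genes tested and a call at an adjusted p under 0.05. In spleen, where 9.11% of all genes tested were called, 0 of the 5 were called by limma and 1, Ccl4, had an unadjusted p under 0.05, as did 22.1% of all genes. Ccl4 came nearest, at 0.51 ± 0.17 (SE) above wild type, or 1.42-fold, with an unadjusted p of 0.0103 and an adjusted p of 0.0846 (limma). Its within-run differences were 0.64 in the first run and 0.35 in the second. Every within-run difference given in this report, for genes and for ratios, has only 1 array on one side. In bone marrow 8.65% of all genes were called and again 0 of the 5 (0 at an unadjusted p under 0.05, against 23.8% of all genes), with Ccl4 at 0.17 ± 0.19 (adjusted p = 0.614, limma).

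The intervals say how large a genotype difference these arrays leave room for. For Ccl5 the 95% interval of KO minus wild type ran from -0.16 to 0.23 in spleen and from -0.25 to 0.19 in bone marrow. For Xcl1 it ran from -0.05 to 0.36 and from -0.07 to 0.38, around 0.15 in each tissue (limma adjusted p = 0.392 and 0.391). For Ccl3 the differences were 0.19 ± 0.15 in spleen and -0.08 ± 0.16 in bone marrow (limma adjusted p = 0.522 and 0.807). For Cxcl10 the interval was wide, from -1.01 to 1.08 in spleen and from -0.48 to 1.84 in bone marrow, so changes of over 2-fold in either direction in spleen lie within it. The Cxcl10 spleen difference was 0.83 within the first run and -0.57 within the second.

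Averaged over both tissues, 19.1% of all genes were called by limma and 0 of the 5 chemokines. At an unadjusted p under 0.05 stood 2 of the 5 and 31.3% of all genes. Ccl4 stood at 0.34 ± 0.12 (adjusted p = 0.0614, limma) and Xcl1 at 0.15 ± 0.06 (adjusted p = 0.126, limma). Ccl5 stood at 0.00 ± 0.06, with an interval from -0.14 to 0.14. Leaving out the third KO bone marrow array took the adjusted p of Ccl4 to 0.00511 over both tissues and to 0.0207 in spleen, which are calls. Ccl4 over both tissues was also called without the run term (adjusted p = 0.0383), with array weights (0.0248) and with a filter at the 60th percentile (0.0487), and Xcl1 with an intensity-dependent, robust prior (0.0121), all in limma. The arrays of Ccl4 and Xcl1 did not overlap in spleen, nor those of Xcl1 in bone marrow, while 28.0% of all genes tested did not overlap in spleen and 34.2% in bone marrow. The median difference of the 5 was 0.15 in spleen and 0.15 in bone marrow, against -0.01 in each tissue over all genes.

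Whether the genotype difference depended on the tissue was tested as an interaction, in which 1 gene of 11963 (0.00836%) was called and 1092 (9.13%) had an unadjusted p under 0.05. None of the 5 chemokines was called (limma, lowest adjusted p = 0.730), and 0 had an unadjusted p under 0.05. The difference in bone marrow minus that in spleen was -0.27 for Ccl3, -0.34 for Ccl4, -0.06 for Ccl5, 0.00 for Xcl1 and 0.64 for Cxcl10. For Xcl1 its interval ran from -0.32 to 0.33.

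In bone marrow relative to spleen, Ccl3 and Ccl4 were lower and Xcl1 was higher when both genotypes were averaged, a comparison added after the values had been seen. In it 7.37% of all genes were called, 5.05% higher and 2.32% lower, and 3 of the 5 chemokines. Ccl4 was lower by 1.46-fold (-0.55 ± 0.12, adjusted p = 0.0185, limma), Ccl3 by 1.31-fold (-0.39 ± 0.10, adjusted p = 0.0404, limma), and Xcl1 was higher by 1.24-fold (0.31 ± 0.06, adjusted p = 0.0168, limma). Ccl5 stood at -0.16 ± 0.06 (adjusted p = 0.152) and Cxcl10 at 0.73 ± 0.33 (adjusted p = 0.219), neither called by limma. The calls rested on few arrays: without the third KO spleen array 0 of the 5 were called, without the second wild type spleen array 1, and the Ccl3 call was lost without any one of 11 of the 12 arrays, with the filter left out or with arrays centred on their medians.

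Within each genotype no tissue difference passed the test. Among wild type arrays 5.37% of all genes were called and 0 of the 5 (2 at an unadjusted p under 0.05, against 22.9% of all genes), with Xcl1 at 0.31 ± 0.09 (adjusted p = 0.0791, limma), Ccl4 at -0.38 ± 0.17 and Ccl3 at -0.26 ± 0.15. The arrays of these 3 genes did not overlap between wild type tissues, as in 31.6% of all genes tested. Among KO arrays 0.318% of all genes were called and 0 of the 5 (3 at an unadjusted p under 0.05, against 9.25% of all genes), with Xcl1 at 0.31 ± 0.10 (adjusted p = 0.348, limma), Ccl4 at -0.72 ± 0.19 and Ccl3 at -0.52 ± 0.16. Ccl4, Ccl5 and Xcl1 did not overlap between KO tissues, as in 16.3% of all genes. Xcl1 was higher in bone marrow by 0.26 and 0.37 within the first and second runs of wild type arrays and by 0.35 within the first run of KO arrays. The genotype and tissue comparisons share arrays, so the values are given side by side only.

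**Figure D2:**
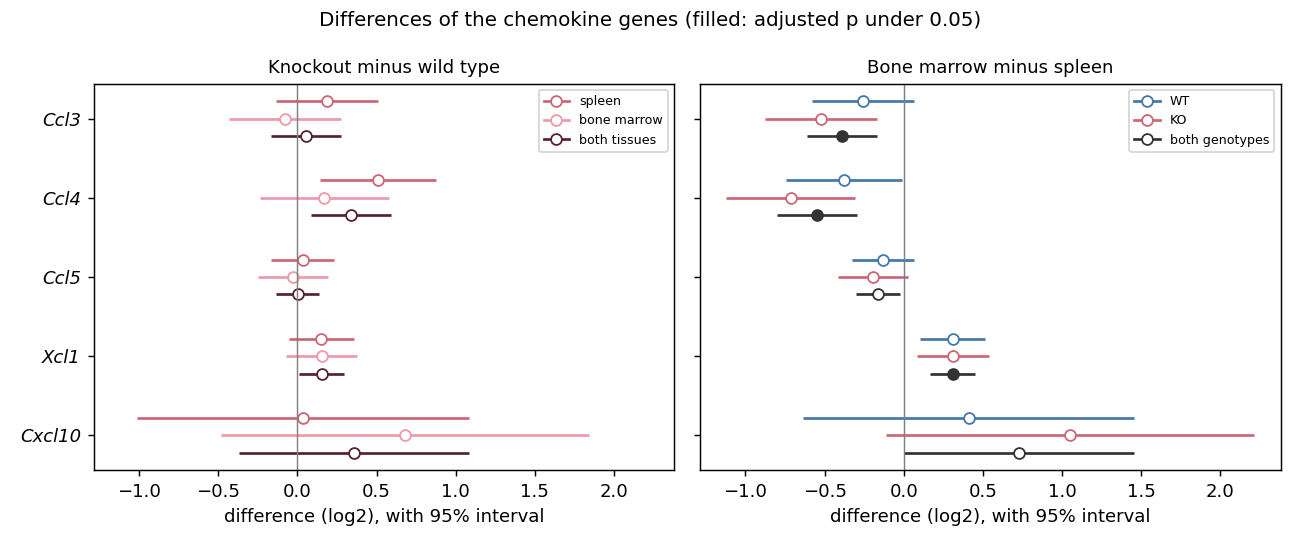
Log2 difference with its 95% interval for each chemokine gene, KO minus wild type on the left and bone marrow minus spleen on the right. Filled points passed an adjusted p of 0.05 in limma, and these are Ccl3, Ccl4 and Xcl1 between tissues with both genotypes averaged.

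Ratios between 2 chemokines within an array remove what scales the whole array and show whether the genes changed unequally. The level of such a ratio mixes the binding of different probe sets, so only its change is read. All 10 pairs were compared between genotypes, after the values had been seen, by an exact two-sided permutation test of genotype within tissue, whose 400 arrangements allow no p under 0.005. This test carried no run term, although all KO bone marrow arrays are in the first run, so its p-values are not adjusted for the run. The Ccl4 to Ccl3 ratio (log2) read -1.27, -1.11 and -1.01 in wild type spleen and -0.81, -0.83 and -0.75 in KO spleen. In bone marrow it read -1.22, -1.19 and -1.30 in wild type and -1.06, -0.86 and -1.10 in KO. Every KO array lay above every wild type array of its tissue.

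The Ccl4 to Ccl3 ratio was higher in KO by 0.33 for spleen, by 0.23 for bone marrow and by 0.28 on average (exact permutation p = 0.005, adjusted over the 10 pairs 0.025). Within runs the difference was 0.44 and 0.19 in spleen and 0.21 in bone marrow. The Xcl1 to Ccl5 ratio was higher in KO by 0.12 for spleen, by 0.17 for bone marrow and by 0.15 on average, again without overlap (exact permutation p = 0.005, adjusted 0.025). Its within-run differences were 0.09 and 0.13 in spleen and 0.15 in bone marrow. Were Ccl5 compressed at the top of the scale, which was not tested, this ratio would follow Xcl1 alone. For both ratios the p is the lowest possible, and it follows from the separation of the arrays in both tissues. How often pairs beyond these 10 separate was not computed, while 13.5% of single genes tested did so with the same sign. After a further quantile normalization the adjusted p was 0.05 for Ccl4 to Ccl3 and 0.175 for Xcl1 to Ccl5, so neither passed. The Ccl5 to Ccl4 ratio was lower by 0.37 in KO on average (difference -0.37, exact permutation p = 0.03, adjusted 0.1), and the other 7 pairs had adjusted p-values of 0.338 or more.

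**Figure D3:**
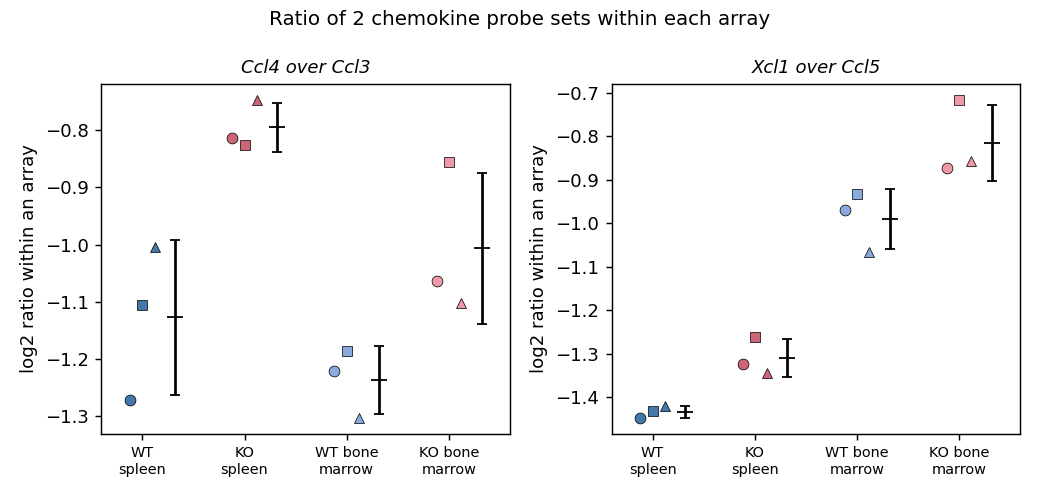
Log2 ratio of Ccl4 to Ccl3 (left) and of Xcl1 to Ccl5 (right) within each array, by group. Points are arrays and bars are the mean and 1 SD over 3 arrays. In both panels the KO arrays of a tissue lie above its wild type arrays, and the level of a ratio is not read, since it depends on the probe sets.

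On the genome, RefSeq places Ccl5, Ccl9, Ccl6, Ccl3 and Ccl4 in one row on chromosome 11, the chromosome that also holds Mir142, with Xcl1 on chromosome 1 and Cxcl10 beside Cxcl9 on chromosome 5. The Ccl3 and Ccl4 gene models overlap there, and which strand and exons the probes read is not given in the sources used here, so signal shared by these 2 genes is possible. Ccl9, between Ccl5 and Ccl3, is expressed mainly by myeloid cells and was not called between genotypes, at -0.26 ± 0.16 in spleen and -0.25 ± 0.18 in bone marrow. It was lower in bone marrow over both genotypes by 0.50 (difference -0.50, adjusted p = 0.0236, limma). Its signal was dim, with group means from 5.27 in KO bone marrow to 6.06 in wild type spleen, around the filter of 5.49. Ccl6 was below the filter. Cxcl9, the neighbour of Cxcl10 and another interferon-gamma target, stayed between 5.14 and 5.49 on all 12 arrays, below the filter.

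Of the 13 other chemokine genes tested, 1 rose in KO bone marrow, where 8.65% of all genes were called, and none passed in spleen, where 9.11% were. It was Ccl1, a Ccr8 ligand, which read 5.40, 5.64 and 5.38 in wild type bone marrow and 6.15, 6.60 and 6.68 in KO bone marrow. The wild type values lay around the filter of 5.49. All KO arrays lay above all wild type arrays, by 1.06 ± 0.19 on average (adjusted p = 0.00515, limma), while in spleen the difference was 0.17 ± 0.17 (adjusted p = 0.643). Over both tissues Ccl1 and Cxcl17, a mucosal chemokine, were called, 2 of 13 against 19.1% of all genes, Cxcl17 at 0.25 (adjusted p = 0.0394, limma). The median difference of the 13 was 0.04 in spleen and 0.16 in bone marrow.

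Among receptors of the 5 chemokines, Cxcr3, which binds Cxcl10, fell in KO. It read 9.67 to 9.95 in wild type spleen against 7.18 to 8.09 in KO spleen, and 9.90 to 10.57 in wild type bone marrow against 7.21 to 7.74 in KO bone marrow. The difference was -2.17 ± 0.24 in spleen (adjusted p = 0.000161, limma) and -2.94 ± 0.27 in bone marrow (adjusted p = 4.91e-05, limma). Ackr2, a scavenger of CC chemokines, was not called, at -0.22 ± 0.16 and -0.18 ± 0.18. Ccr1, Ccr3 and Xcr1 were below the filter.

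Cytokines that NK cells secrete with these chemokines changed in both directions. Of 8 tested, 2 rose and 1 fell in KO spleen, and 2 rose and 3 fell in KO bone marrow. Of all genes tested, 5.48% rose and 3.63% fell in KO spleen, and 3.92% rose and 4.73% fell in KO bone marrow. Ifng, which encodes interferon gamma, read 10.33 to 10.66 in wild type spleen and 8.56 to 9.41 in KO spleen, a fall of 1.35 on the log2 scale (difference -1.35 ± 0.30, adjusted p = 0.0145, limma). In bone marrow Ifng fell by 2.08 (difference -2.08 ± 0.33, adjusted p = 0.00247, limma). Tnfsf10, the death ligand TRAIL, rose by 1.97 ± 0.16 and 2.27 ± 0.18, and Tgfb1, an inhibitory cytokine, by 0.49 ± 0.13 and 0.81 ± 0.14. Tnf was 0.40 ± 0.22 in spleen (adjusted p = 0.326) and fell in bone marrow (-0.90 ± 0.24, adjusted p = 0.0418, limma).

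Of genes listed for the control of chemokine transcription, activators and inhibitors together, 30 were tested. Among these, 5 were called in spleen and 4 in bone marrow, against 9.11% and 8.65% of all genes. In KO spleen 2 rose, the zinc finger factors Egr1 (0.89 ± 0.20) and Egr2 (0.58 ± 0.16), and 3 fell, Nfatc2, Nfatc3 and Stat4. In KO bone marrow Egr2 rose (0.89 ± 0.18), and Nfatc2, Nfatc3 and Nfkbiz fell. Nfatc2, a calcium-dependent activator of cytokine genes, stood at -0.48 ± 0.11 in spleen and -0.85 ± 0.13 in bone marrow (limma adjusted p = 0.0200 and 0.00141). Of 11 genes that control decay of chemokine mRNA, none passed in a single tissue, where 9.11% and 8.65% of all genes did, and 2 passed over both, where 19.1% did. Over both tissues Zfp36, or tristetraprolin, which binds AU-rich elements, fell (-0.45 ± 0.14, adjusted p = 0.0454) and Rc3h2, or Roquin-2, rose (0.42 ± 0.09, adjusted p = 0.00708, limma).

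**Figure D4:**
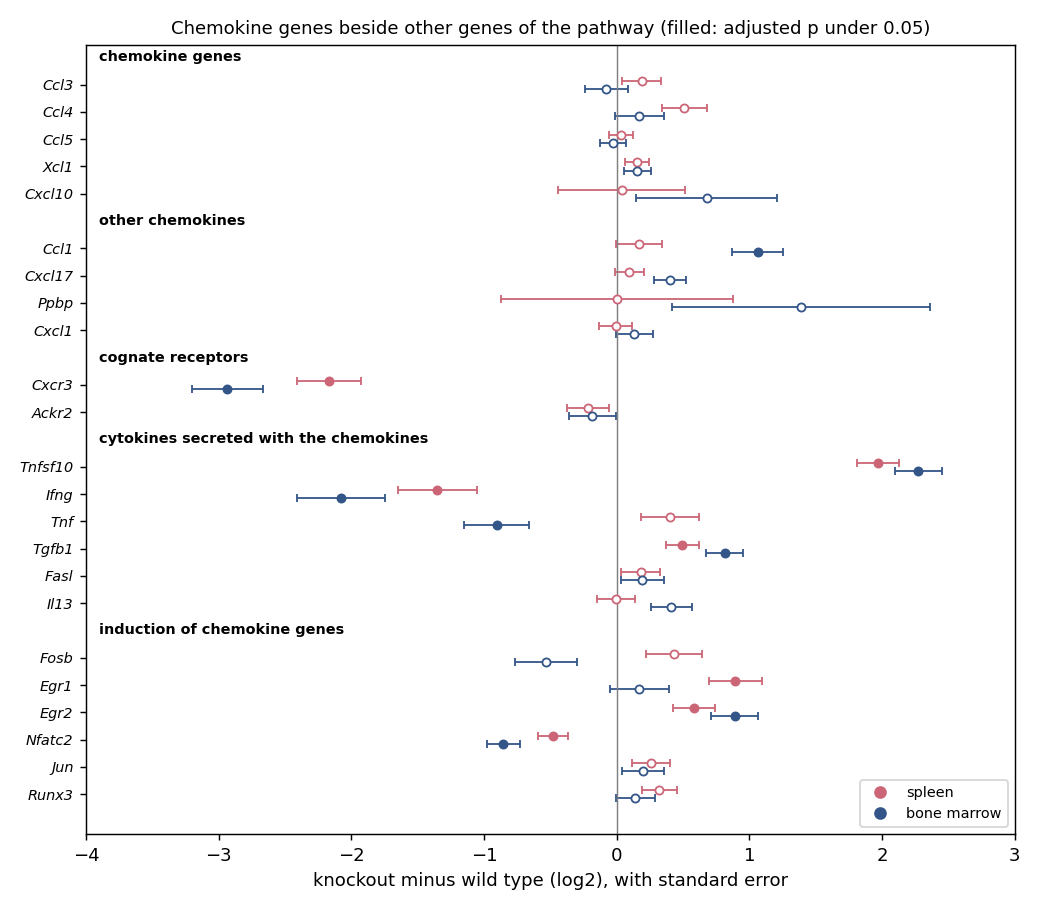
Log2 difference, KO minus wild type, in spleen and in bone marrow for the named genes of 4 pathway lists, with the 5 chemokine genes for comparison. Horizontal bars are 1 standard error and filled points passed an adjusted p of 0.05 in limma. Cxcr3 and Ifng lie far to the left of 0 in both tissues and Tnfsf10 far to the right, while the 5 chemokine genes lie between -0.08 and 0.68.

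Granule genes are listed because NK cells store chemokines and granzymes with the proteoglycan serglycin. Of 16 tested, 6 rose and 1 fell in KO spleen, where 5.48% of all genes rose and 3.63% fell. In KO bone marrow 5 rose and 2 fell, against 3.92% and 4.73%. Srgn, which encodes serglycin, read 10.79 to 10.92 in wild type spleen and 11.35 to 11.56 in KO spleen, and rose by 0.57 ± 0.10 (adjusted p = 0.00453, limma). In bone marrow it rose by 0.48 ± 0.11 (adjusted p = 0.0232, limma). Gzmb, a granzyme, rose by 1.14 ± 0.12 and 1.31 ± 0.14, and Gzmc, another, by 4.48 ± 0.34 and 4.001 ± 0.38. Lyst, a regulator of granule size, fell in both tissues (-0.53 ± 0.14 and -0.61 ± 0.15).

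Interferon-inducible genes, the class to which Cxcl10 belongs, were looked at in 2 lists. Of 12 interferon-gamma-inducible genes tested, 3 rose in KO spleen (Gbp3, a guanylate-binding protein, by 0.86 ± 0.14, and the immunoproteasome genes Psmb8 and Psmb10), and none passed in bone marrow. Of 17 type I interferon-inducible genes tested, 3 rose in KO spleen and 1 in KO bone marrow. Of all genes 5.48% rose in spleen and 3.92% in bone marrow. The 1 in bone marrow was Isg20, an antiviral exonuclease, at 1.60 ± 0.23 (adjusted p = 0.00139, limma), against 0.76 ± 0.21 in spleen (adjusted p = 0.0446). No gene of either list fell in these comparisons. These lists were chosen with the data known and their counts are a description.

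The 1 array that carried the highest Cxcl10 was also the highest for other interferon-inducible genes, an observation made after its values were seen. Among the 38 such genes measured, the second KO bone marrow array was the highest of the 12 in 11, and in 9 of the 29 that passed the filter, against 6.37% of all genes tested. Usp18, which restrains interferon signalling, read 8.11 there and 6.35 to 7.04 on the other 11 arrays. Ifit1, an antiviral gene, read 7.30 there and at most 6.60 elsewhere. Without that array the bone marrow difference of Cxcl10 was 0.09, where it was 0.68 with it.

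Markers of other cell types moved with tissue and genotype. Their summed signal (log2 of the sum) over 11 granulocyte genes was 9.07 to 10.11 in wild type spleen, 9.86 to 11.01 in KO spleen, 12.17 to 12.42 in wild type bone marrow and 10.60 to 11.59 in KO bone marrow. Of 8 tested, 7 were higher in bone marrow between wild type tissues (against 519 of 11963 genes) and over both genotypes (against 5.05% of all genes). S100a8 and S100a9 were among them, and 0 were higher between KO tissues. Between genotypes, 1 rose in KO spleen, S100a8, against 5.48% of all genes. In KO bone marrow 4 fell, S100a8, Retnlg, Lcn2 and Camp, against 4.73% of all genes. Ly6g, Ltf and Cxcr2 were below the filter. The sum over 8 T cell genes was 10.58 to 10.82 in wild type bone marrow and 9.16 to 9.65 in the other 3 groups, with Cd4 and Cd8b1 below the filter. Of 6 tested, 1 fell in KO spleen, Cd3d (-1.05 ± 0.23, adjusted p = 0.0142, limma), against 3.63% of all genes. Cd3e and Cd3g stood at 0.55 and 0.44 there, neither called. In KO bone marrow 3 fell, Cd3d, Cd3e and Cd3g, against 4.73% of all genes. Cd5, Cd6 and Cd8a stood at -0.32, 0.10 and -0.07 there, none called.

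The sum over 9 monocyte and macrophage genes was 11.31 to 11.47 in wild type spleen, 10.24 to 10.44 in KO spleen, 11.54 to 11.83 in wild type bone marrow and 11.21 to 11.39 in KO bone marrow. Its brightest member was Ccr2, which NK cells express too and which fell in KO spleen (-1.33 ± 0.12), as did Ms4a6c. Lyz2 and C1qa stood at 0.45 and 0.19 there, neither called. Csf1r, Cd14, Adgre1, Fcgr1 and C1qb were below the filter. The sum over 10 dendritic cell genes was 10.80 to 10.93 and 12.02 to 12.18 in wild type and KO spleen, and 10.52 to 10.77 and 11.69 to 11.88 in wild type and KO bone marrow. Its called members were H2-Aa, H2-Ab1 and Itgax in spleen and Itgax alone in bone marrow. Itgax, a gene that NK cells also express, was its brightest member, with means of 10.41 in wild type and 11.79 in KO spleen. Zbtb46 and Ccr7 stood at -0.07 and -0.15 in spleen and at 0.25 and 0.22 in bone marrow, neither called. Flt3, Xcr1, Clec9a, Siglech and Cd209a were below the filter. The sum over 10 NK genes was 15.07 to 15.16 in wild type spleen and 15.14 to 15.24 in KO spleen. In bone marrow it was 14.83 to 15.01 in wild type and 14.95 to 15.06 in KO, below every spleen array. Over both genotypes 3 of the 10 were called lower in bone marrow, Tbx21, Gzma and Prf1, and 0 higher, against 2.32% and 5.05% of all genes. Between genotypes over both tissues, Il2rb and Gzma were called higher in KO. The part of these other cell types in the chemokine values was not tested.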

How the data were processed

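The 12 arrays hold log2 values that the authors summarised with RMA in Affymetrix Expression Console, per the submitters' processing notes, after Trizol extraction, NuGEN Ovation PicoSL amplification and hybridisation of biotinylated cDNA, per the labels' protocols. No version is given in the sources used here, and the number of arrays limits the precision. The deposited table has 35556 probe sets, of which 21789 carry 1 gene symbol, 1621 several and 12146 none, and the platform annotation can be old. Of the 1-symbol probe sets 21698 were found in RefSeq by gene identifier. From these values, the probe set with the highest mean was kept per symbol, and genes brighter on average than the 40th percentile of all genes were fitted with limma 3.58.1 in R 4.3.3 (4 group means plus the run of array numbers, eBayes, Benjamini-Hochberg over 11963 genes). No normalization was added, and the fit was tested on simulated data.

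The members and the lists were chosen with earlier results of these data known. Named were all 5 chemokines, Mir142, NK markers, receptors of the 5, up to 4 called genes per list with the largest difference and up to 2 uncalled with the highest mean. Lyst, Nfatc3, Stat4, Nfkbiz, Srgn, Ccl9, Cxcl9 and Usp18 were named after their values were seen. Replicate numbers were not treated as pairs, since the labels do not say that they pair mice. Same-numbered arrays deviated together in 6 of 12 pairs (correlation over 0.1), against 0 of 24 differently numbered pairs, so pairing remains possible. Alternatives covered filter, normalization, run term, prior, array weights, probe set choice, the 2 compared groups alone without the run term, replicate number and each array left out. Protein sequences were not used here.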

Additional observations from a re-analysis of the deposited data

How the results depend on the processing

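Over 35 combinations of chemokine gene and comparison, 755 alternative values were computed. Of these 694 kept their direction and their side of the threshold, 13 newly passed it, 16 no longer did and 32 changed sign, none of the last passing it and none above 0.62 in size. The cause was not tested where a result moved, beyond what the alternative itself changes.

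For KO minus wild type, Ccl4 newly passed in spleen with only the 2 compared groups fitted, which also leaves out the run term (0.46, adjusted p = 0.0424, 1 of the 5 called). Over both tissues it passed without the run term (0.37), with the 60th percentile filter (0.34) and with array weights (0.38), and Xcl1 passed with an intensity trend and robust prior (0.15), each giving 1 of the 5 called. Differences near 0 changed sign. Cxcl10 in spleen was -0.0090 without the run term, with all groups or only the 2, and -0.040 with array weights. Ccl3 in bone marrow was 0.044 without the run term, with all groups or only the 2. Ccl5 under a further quantile normalization was -0.022 in spleen, 0.063 in bone marrow and 0.085 in the interaction, and over both tissues it was -0.0023 without the run term and -0.030 with median centring. Xcl1 in the interaction was -0.038 without the run term and -0.071 with median centring.

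Between tissues, Xcl1 newly passed among wild type arrays without the run term (0.32, adjusted p = 0.0465), with median centring (0.37, 0.0414), with the trend and robust prior (0.31, 0.00633) and with array weights (0.31, 0.0439), each giving 1 of the 5 called in limma. It passed among KO arrays with the trend and robust prior (0.31, 0.0468, 1 called). Over both genotypes Ccl3 no longer passed with median centring (-0.36, 0.059) or without the filter (-0.39, 0.0564), and Ccl5 newly passed with the trend and robust prior (-0.16, 0.0068). After quantile normalization the ratio of Ccl4 to Ccl3 differed by 0.27 and that of Xcl1 to Ccl5 by 0.14, and neither passed.

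Counts of genes called moved over 1.5-fold without the run term (bone marrow genotype 1590, interaction 2, KO tissue 87) and with array weights (wild type tissue 1135, interaction 2). The interaction count was 0 with the 60th percentile filter and 3 with the trend and robust prior. Calls higher and lower in KO bone marrow were 469 and 566, against 529 and 393 after quantile normalization and 370 and 830 with median centring. Between wild type tissues they were 519 and 124, against 360 and 196, and 780 and 80. Between tissues over both genotypes they were 604 and 278, against 505 and 384, and 744 and 207.

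Leaving out 1 array at a time gave the ranges that follow. Genes called were 546 to 1083 for genotype in spleen (546 without wild type spleen array 3), 371 to 1006 in bone marrow (371 without wild type bone marrow array 1), 0 to 5 for the interaction, 82 to 702 between wild type tissues (82 without wild type bone marrow array 1), 1 to 38 between KO tissues (1 without KO spleen array 3) and 378 to 870 between tissues over both genotypes. Of the 5 chemokines, 0 to 1 were called for genotype in spleen and over both tissues, and 0 to 3 between tissues. For genotype in spleen, Ccl4 ranged from 0.44 to 0.64, Ccl5 from -0.027 to 0.066 and Cxcl10 from -0.62 to 0.32. In bone marrow Ccl3 ranged from -0.25 to 0.076 and Ccl5 from -0.088 to 0.0011. Over both tissues Ccl3 ranged from -0.032 to 0.13, Ccl4 from 0.27 to 0.44 and Ccl5 from -0.021 to 0.025. In the interaction Ccl5 ranged from -0.13 to 0.028 and Xcl1 from -0.057 to 0.087. Between tissues over both genotypes Ccl3 ranged from -0.48 to -0.31, Ccl4 from -0.62 to -0.44 and Xcl1 from 0.29 to 0.33. The ratio of Ccl4 to Ccl3 ranged from 0.24 to 0.31 and that of Xcl1 to Ccl5 from 0.12 to 0.16. Their adjusted p reached 0.05 without wild type bone marrow array 1 or 3 or KO bone marrow array 2.

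With the replicate number as a block, no call of the 5 chemokines changed. Ccl4 in spleen stood at 0.50 (adjusted p = 0.111, limma), Xcl1 in the interaction at -0.0085, and 5 genes were called in the interaction where 1 was without it. Every array correlated best with its own number between wild type tissues only (6 of 6), against 4, 4 and 5 of 6 in the other comparisons, which is a hint from the data and not from the design. The protein alignment was not run.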

Other observations

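The genes whose log2 values followed each chemokine most closely over the 12 arrays are given as a description, since all arrays share their group structure and no test was made. Ccl3 and Ccl4 were among each other's 3 nearest genes (Pearson r = 0.898, 12 arrays). Beside it stood Ikzf5 (0.894) and Klf11 (0.848) for Ccl3, and Zfand5 (0.948) and Inpp4a (0.899) for Ccl4. Nearest to Ccl5 were Abca1 (0.965), a cholesterol exporter, Pik3cb (0.950) and Trp53inp1 (0.935). Abca1 had a mean of 7.56 and 7.66 in wild type and KO spleen, and of 7.19 and 7.11 in wild type and KO bone marrow, so like Ccl5 it was brighter in spleen.

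Nearest to Xcl1 were Socs2 (0.927), a feedback inhibitor of cytokine signalling, Msh6 (0.918) and Naa50 (0.914). Socs2 rose in the same 4 steps of group means, from 6.49 in wild type spleen through 7.16 in KO spleen and 7.73 in wild type bone marrow to 7.94 in KO bone marrow. Nearest to Cxcl10 were Nemp1 (0.891), Tnfrsf21 (0.879) and Wdr61 (0.839).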
